A study of Mus musculus with 2 samples.

Results

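The Cd209 lectin family of the mouse adrenal gland was followed here through 5 listed genes, Cd209a, Cd209b, Cd209d, Cd209f and Cd209g, of the 32285 genes in the count tables. The genes were taken by name and their UMIs (unique molecular identifiers, 1 per captured RNA molecule) were summed over gated classes of immune cells. The data were 2 single-cell RNA-seq libraries of live CD45+ cells sorted from adrenal glands of 7-week-old C57Bl/6 mice, 1 from female and 1 from male animals, with no treatment and no transgene named in the labels. The labels speak of mice in the plural, and the number of animals behind each library is not given in the sources used here. With 1 library per sex the variation from animal to animal was not measured, so no p-value is given, and every interval below is a 95% interval that covers counting error only. UMI totals of different genes depend on length and capture, and levels are compared here within a gene and not between genes.

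CD209 proteins are C-type lectins of the cell surface that bind mannose- and fucose-containing glycans in a calcium-dependent way. Humans carry the well-known member DC-SIGN, and the mouse has a cluster of paralogs that arose by duplication. Cd209a, the mouse gene most often called DC-SIGN, is widely used to mark type 2 conventional dendritic cells (cDC2) and monocyte-derived DCs. Cd209b encodes SIGN-R1, a receptor for microbial polysaccharides known from macrophages of the splenic marginal zone, and Cd209d encodes SIGNR3. Cd209f and Cd209g are less studied members.

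All 5 members lie on chromosome 8 of GRCm38, the assembly also called mm10. Cd209a (ENSMUSG00000031494) spans chr8:3743397-3748984, Cd209d (ENSMUSG00000031495) chr8:3871824-3878555, Cd209b (ENSMUSG00000065987) chr8:3917655-3926844 and Cd209f (ENSMUSG00000051906) chr8:4102787-4105835, all on the minus strand. Cd209g (ENSMUSG00000079168) lies on the plus strand at chr8:4134098-4137707. None of the 5 overlaps another annotated gene, and the paralogs Cd209e and Cd209c sit between Cd209a and Cd209f.

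The promoter windows are shown because the members fell into groups by cell class and because a pair of them was nearly identical around the RefSeq start. Each window is 300 bases long and runs from 250 bases before to 50 bases after the start site of RefSeq (build GRCm38.p6), written 5′ to 3′ on the strand of the gene. The windows are chr8:3748935-3749234 (Cd209a), chr8:3926792-3927091 (Cd209b), chr8:3878450-3878749 (Cd209d), chr8:4105715-4106014 (Cd209f) and chr8:4134486-4134785 (Cd209g). The RefSeq start of Cd209a is the outermost base of its gene span given above, and those of the other members lie further inside theirs. The window of Cd209g lies wholly within its span. Capitals mark the longest run of bases that a member shares with another member. Cd209d had another run of equal length, 12 bases shared with Cd209b at positions 22 to 33 of both windows, which is not in capitals.
Cd209a: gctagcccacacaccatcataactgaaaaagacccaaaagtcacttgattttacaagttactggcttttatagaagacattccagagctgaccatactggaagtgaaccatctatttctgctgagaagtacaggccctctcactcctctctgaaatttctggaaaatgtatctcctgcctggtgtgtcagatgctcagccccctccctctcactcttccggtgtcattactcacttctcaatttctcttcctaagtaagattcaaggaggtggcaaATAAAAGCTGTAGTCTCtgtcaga
Cd209b: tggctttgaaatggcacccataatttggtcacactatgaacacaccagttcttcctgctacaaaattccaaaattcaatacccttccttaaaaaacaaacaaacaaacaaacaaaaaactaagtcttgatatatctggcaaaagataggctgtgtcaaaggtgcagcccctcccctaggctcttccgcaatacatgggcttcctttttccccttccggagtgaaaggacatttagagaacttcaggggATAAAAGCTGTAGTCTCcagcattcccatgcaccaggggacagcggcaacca
Cd209d: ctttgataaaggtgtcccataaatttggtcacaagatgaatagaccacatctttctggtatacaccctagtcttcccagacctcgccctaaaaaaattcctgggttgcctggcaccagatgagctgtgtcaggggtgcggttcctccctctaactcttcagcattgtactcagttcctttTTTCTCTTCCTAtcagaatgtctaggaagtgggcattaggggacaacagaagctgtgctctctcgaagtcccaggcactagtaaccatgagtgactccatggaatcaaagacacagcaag
Cd209f: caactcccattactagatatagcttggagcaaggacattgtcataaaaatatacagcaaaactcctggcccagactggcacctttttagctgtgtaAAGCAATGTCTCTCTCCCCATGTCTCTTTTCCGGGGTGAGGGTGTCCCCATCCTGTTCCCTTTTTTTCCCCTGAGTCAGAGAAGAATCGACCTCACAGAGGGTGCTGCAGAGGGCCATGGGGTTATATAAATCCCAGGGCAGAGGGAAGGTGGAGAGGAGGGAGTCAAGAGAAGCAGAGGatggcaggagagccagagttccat
Cd209g: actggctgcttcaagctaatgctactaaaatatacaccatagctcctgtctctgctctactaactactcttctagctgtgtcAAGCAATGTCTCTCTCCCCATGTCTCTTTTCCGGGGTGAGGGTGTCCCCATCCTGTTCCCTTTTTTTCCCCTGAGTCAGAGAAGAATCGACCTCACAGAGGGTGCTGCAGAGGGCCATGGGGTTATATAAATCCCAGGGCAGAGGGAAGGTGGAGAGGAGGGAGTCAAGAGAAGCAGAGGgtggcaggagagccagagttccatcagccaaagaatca

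The capitals of Cd209f and Cd209g were the same 180 bases, and 212 of 214 aligned bases around them were identical (99.1%). They lay at positions 97 to 276 of the window in Cd209f and at 83 to 262 in Cd209g, so that the run was shifted relative to the start sites. By contrast, the longest run shared by Cd209a and Cd209b was 17 bases, and that of Cd209d with Cd209a was 12 bases. 5 short motifs were searched on both strands. TGAGTCA, the AP-1 site, was present in Cd209f and Cd209g only among the 5 members, starting at position -83 and -97 from the start site, and 5.2% of 32851 promoter windows held it. TATAAA, the TATA box, stood at -29 in Cd209f, at -43 in Cd209g and at -184 in Cd209a (13.62% of windows). AGGAAG, the core of sites bound by PU.1, occurred in Cd209a, Cd209b (3 matches) and Cd209d (2 matches) and in neither Cd209f nor Cd209g (35.35% of windows). CCGGAA, a general ETS site, was present in all members but Cd209d (14.9% of windows), and TGCTGA, a half-site of MAF factors, in Cd209a and Cd209d (19.48% of windows). No searched match overlapped another within a member. A match is a string of letters and was not tested as a binding site.

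**Figure D1:**
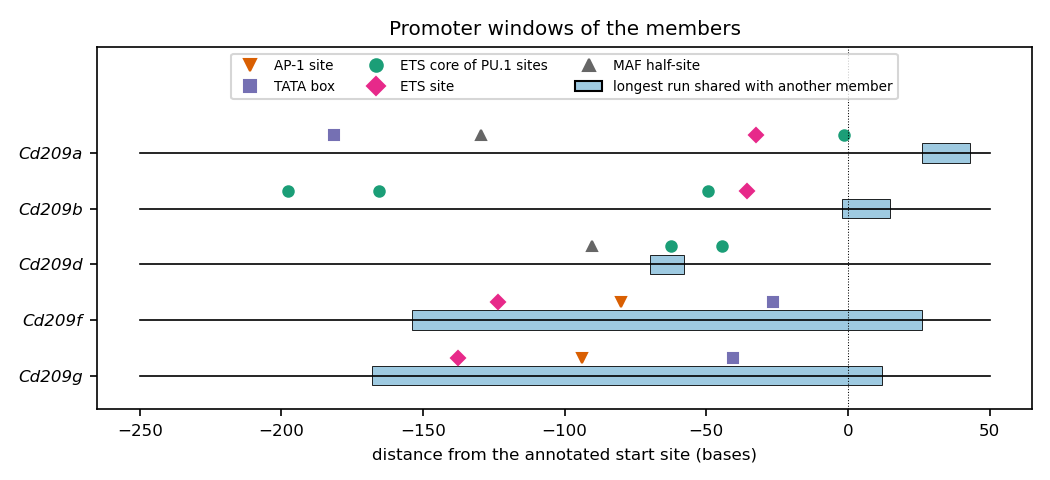
Promoter windows of the 5 members drawn to scale by distance in bases from the annotated start site (0). Blue boxes are the longest run shared with another member, and symbols are motif matches on either strand. The boxes of Cd209f and Cd209g cover 180 bases and carry the AP-1 and TATA matches at the same place within the run.

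Close paralogs can share reads. In the reference transcripts of GENCODE, 37.0% of all 55-base words of Cd209f and 37.5% of those of Cd209g, the length of the sequenced read, occurred in the other gene. None of the 446 words in the last 500 bases of any member, the end that a 3′ library reads, occurred in another gene. Reads of Cd209f and Cd209g that fell on the shared words, all further upstream, could not be told apart by sequence alone, and aligned transcripts of the pair were 92.1% identical over 1157 positions. Values of Cd209f and Cd209g are to be read with that limit.

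The female library held 3963 barcodes and 16218309 UMIs, and the male library 2685 barcodes and 9512670 UMIs, and only 2 barcodes occurred in both. After filtering, 3694 female and 2449 male cells remained, with a median of 3489.5 and 3008 UMIs per cell. Members of the family gave 1129 UMIs in 212 female cells (5.74%) and 1461 UMIs in 242 male cells (9.88%). Cells were assigned to 16 classes by canonical markers that include no Cd209 gene, which placed 98.97% of female and 98.12% of male cells. The classes are gates on marker scores, so a cDC2 below is a cDC2-like cell and a monocyte a monocyte-like cell, with the suffix dropped. All 9 markers of Lyve1-high macrophages were at least 2-fold higher in their class than outside it, as were all 9 general macrophage markers in the remaining macrophages, 5 of 6 cDC1 markers and 10 of 18 cDC and cDC2 markers in cDC2. Lyve1, a hyaluronan receptor, marks macrophages that lie along vessels in many tissues. The gates gave 82 female and 58 male cDC2, 48 and 47 cDC1, 33 and 5 other conventional DCs, 16 and 7 plasmacytoid DCs (pDCs), 62 and 138 Lyve1-high macrophages, 95 and 103 Aldh1a2-high macrophages, 742 and 708 other macrophages and 285 and 159 monocytes. B, T and NK cells together, called lymphocytes here, were 2112 and 1034 cells, and all conventional DCs were 163 and 110. Of 1650 macrophages split on the Lyve1 score, 43 lay near the threshold.

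Cd209a was highest in cDC2 in both libraries. Its level, in CPM (the UMIs of the gene scaled by the UMI total of the class), was 1136 (1033–1246) in female and 1555 (1415–1706) in male cDC2. These cells held 448 of 742 female UMIs (60.4%) and 449 of 690 male UMIs (65.1%). To compare shares of cells across depths, each cell was thinned to 1000 UMIs. A Cd209a UMI was then found in 58.4% of female and 62.5% of male cDC2, against 76.8% and 77.6% of cells without thinning. Lymphocytes, which are not known for Cd209a, gave 0.434% and 0.199% after thinning, at median depths of 3715 and 3764 UMIs against 4374 and 4782.5 in cDC2. Without thinning, 12 of 19 Cd209a UMIs of female T cells and 14 of 18 of female NK cells lay in cells that clustered with DCs. Those were 2 of 7 and 1 of 5 positive cells. The level was 143 (100.1–198) CPM in female and 135 (91.9–192) CPM in male cDC1, the DCs that cross-present antigen to CD8 T cells. cDC2 thus stood 7.95-fold (5.65–11.5) above cDC1 in the female and 11.5-fold (7.99–17.1) in the male library. The size of this ratio depended on the processing. With classes taken from clusters the female ratio was 76.5 (26.1–372), and male cDC1 had no Cd209a UMI to divide by. A mitochondrial ceiling of 1.2% gave 20.9 and 4.09, a ceiling of 5% gave 18.1 in the male library, and thinning gave 7.07 there. Cd209d was the other member above 2-fold, at 12.8-fold (4.17–63.7) and 14.3-fold (3.68–123), while 19.3% of 3650 genes in the female and 15.1% of 3147 genes in the male library were 2-fold or more higher in cDC2. Cd209d met the UMI minimum of 20 only through cDC2, so nothing is read from their number. Cd209b, Cd209f and Cd209g had at most 2 UMIs in cDC2 or cDC1 of either library, which was too few for a ratio.

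By point value Cd209a was next highest, among the gated classes, in other conventional DCs and pDCs, where few cells stood behind each value. Other conventional DCs had 393 (291–520) CPM in the female and 1291 (809–1955) CPM in the male library, the latter from 22 UMIs in 3 of 5 cells. Plasmacytoid DCs, the producers of type I interferon, had 208 CPM from 9 UMIs and 281 CPM from 7 UMIs. The interval of female pDCs (95.1–395) overlapped those of cDC1 and of other conventional DCs, so the place of pDCs was not resolved, while those of female cDC1 and other conventional DCs did not overlap. The interval of male other conventional DCs overlapped that of male cDC2. The cells that no gate took, 38 female and 46 male, held 52 and 56 Cd209a UMIs, or 543 and 414 CPM.

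Among macrophages, Cd209a was far below its level in cDC2. It was higher in Lyve1-high and Aldh1a2-high macrophages than in other macrophages. Lyve1-high macrophages had 89.3 (47.5–153) CPM in the female and 138 (99.7–187) CPM in the male library, from 13 and 42 UMIs. The 143 and 135 CPM of cDC1 had intervals that overlapped these in both libraries. Aldh1a2-high macrophages, named for the retinaldehyde dehydrogenase that makes retinoic acid, had 48.4 (27.1–79.8) and 88.6 (62.4–122) CPM, with intervals that overlapped those of Lyve1-high macrophages in both libraries. Other macrophages had 10.4 (7.10–14.7) and 7.60 (4.58–11.9) CPM. The level in cDC2 was 12.7-fold (7.37–24.1) that of Lyve1-high macrophages in the female and 11.2-fold (8.18–15.8) in the male library. Under the ceiling of 5%, female Lyve1-high macrophages had 36.4 CPM from 3 UMIs and female cDC2 1038 CPM. After thinning, Lyve1-high macrophages had 54.55 CPM in the female and 86.96 CPM in the male library.

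Monocytes, the blood-derived precursors of many tissue macrophages, had 52.4 (38.8–69.3) CPM of Cd209a in the female and 38.5 (23.5–59.4) CPM in the male library, 14 and 5 cells being positive. Conventional DCs together stood 13.2-fold (9.84–18.1) and 24.4-fold (15.6–40.3) above monocytes. The female ratio was 37.0 with classes from clusters, 29.3 under the ceiling of 1.2% and 20.4 after thinning, and the male ratio was 44.1 without cells near a gate boundary and 46.2 under the ceiling of 1.2%. Cd209d was 15.98-fold (7.02–44.9) and 13.6-fold (4.35–68.6) higher in DCs, and these were the 2 of 5 members past 2-fold in both libraries, beside 5.71% of 6862 genes and 6.3% of 5617 genes that were 2-fold or more higher. Cd209d met the UMI minimum only through the DCs, so nothing is read from that count. The other 3 members had at most 3 UMIs in DCs or monocytes of either library. The split of monocytes differed between libraries. Classical monocytes, the Ly6C-high cells, had 48 UMIs in 13 female cells (67.6 CPM) and nonclassical monocytes 1 UMI (4.44 CPM), whereas the male library had 5 UMIs (17.3 CPM) in classical and 15 UMIs in 3 nonclassical cells (64.7 CPM). One male nonclassical cell held 9 of those 15 UMIs. Neutrophils, mast cells and endothelial cells had no Cd209a UMI in either library, where 3 UMIs would be 23.3 to 162 CPM.

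**Figure D2:**
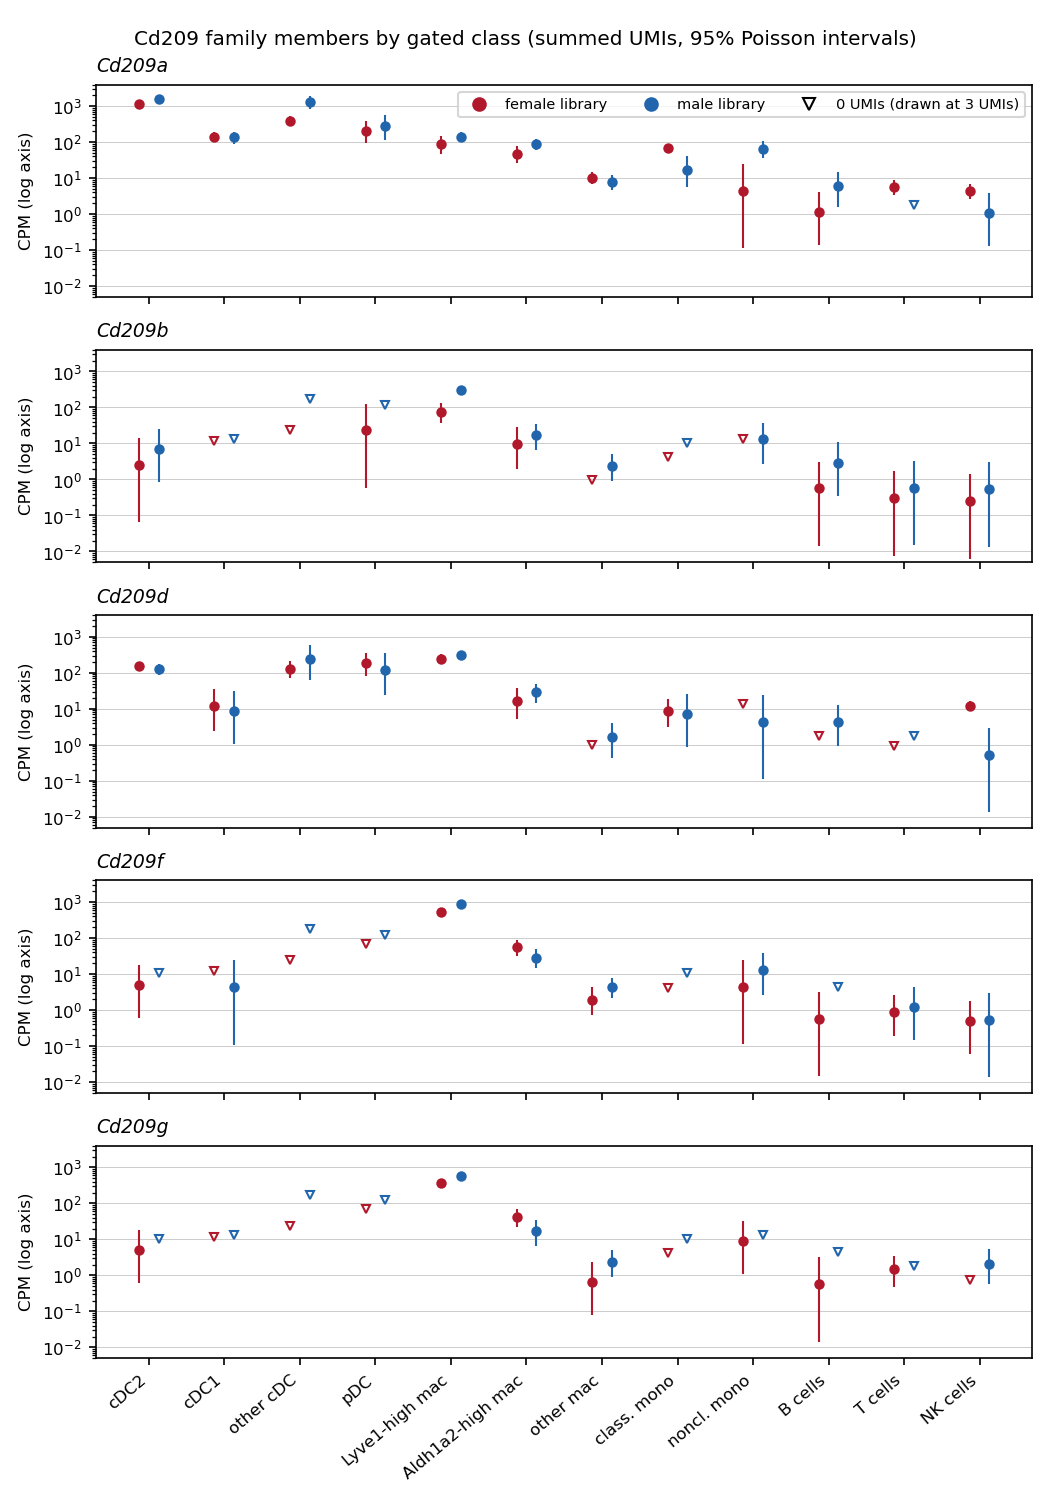
Level of each member (CPM, log axis) in 12 gated classes of the female (red) and male (blue) library. Points are summed UMIs with exact 95% Poisson intervals, and open triangles mark classes without a UMI, drawn at the level of 3 UMIs. Cd209a peaks in cDC2, Cd209b, Cd209f and Cd209g peak in Lyve1-high macrophages, and Cd209d is high in both.

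Cd209d was found in both DCs and Lyve1-high macrophages. Its level in cDC2 was 152 (116–196) CPM in the female and 125 (87.3–173) CPM in the male library, and in Lyve1-high macrophages 247 (173–342) and 306 (247–375) CPM. The ratio of cDC2 to Lyve1-high macrophages was 0.615 (0.401–0.958) and 0.407 (0.269–0.604), below 1 in both libraries, whereas the same ratio of Cd209a was above 1. The female order of Cd209d varied with the processing. With classes from clusters it was 213 (179–252) CPM in cDC2 and 157 (110–217) CPM in Lyve1-high macrophages, a turned order that rested on 1 cell gated as an NK cell, described below, which held 48 of the 136 UMIs of the cDC2 cluster. Without that cell the cluster had 141 (113–174) CPM, in a setting added after the data were seen. Under a mitochondrial ceiling of 5% the female level was 132 (99.8–172) and 109 (49.9–207) CPM, while the male values kept their order at 131 and 252 CPM by clusters and at 113 and 223 CPM under the ceiling. A few cells carried much of the DC signal. The 3 highest female cDC2 held 53.3% of 60 UMIs and 1 cell alone 23 UMIs, and the 3 highest male cDC2 held 55.6% of 36 UMIs. Without the cell with the most UMIs, a setting added after the data were seen, the female level was 97.7 (68.8–135) CPM. After thinning, 11.7% of female and 7.14% of male cDC2 and 16.4% and 22.6% of Lyve1-high macrophages had a Cd209d UMI, against 0.0482% and 0.0993% of lymphocytes. Without thinning the shares were 25.6% and 24.1% of cDC2 and 19.4% and 35.5% of Lyve1-high macrophages, so that the female order of these shares turned with depth.

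Plasmacytoid DCs had 185 (79.8–364) CPM of Cd209d in the female and 121 (24.9–352) CPM in the male library, from 8 and 3 UMIs, values whose intervals overlapped those of cDC2 and Lyve1-high macrophages. Other conventional DCs had 128 and 235 CPM from 16 and 4 UMIs, and cDC1 11.9 and 8.72 CPM from 3 and 2 UMIs. Aldh1a2-high macrophages had 16.1 (5.24–37.6) and 28.7 (14.9–50.2) CPM. Other macrophages gave no UMI in 742 female cells, which allows up to 0.973 CPM, and 1.60 (0.436–4.10) CPM in the male library. Monocytes had 6.42 and 5.77 CPM, and all 6 female UMIs came from 1 cell.

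The highest Cd209d count of all cells was in a female cell gated as an NK cell. It had 48 Cd209d UMIs among 14775 UMIs, together with 14 UMIs of Cd209a, 3 of Flt3 and 2 of Kmo, which are DC genes, and 5 of Ncr1 and 7 of Klrb1c, which are NK cell genes. It clustered with cDC2. That cell held 48 of the 49 Cd209d UMIs of female NK cells and therefore nearly all of the 5.35 CPM seen in female lymphocytes, against 0.945 CPM in male lymphocytes. Whether it was a doublet was not tested beyond the doublet score, which did not remove it.

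Cd209f and Cd209g, the pair with the shared promoter run, were highest in Lyve1-high macrophages in both libraries. Cd209f had 515 (405–646) CPM in the female and 883 (780–995) CPM in the male library, from 75 and 268 UMIs. A few cells carried much of the female value. The 3 highest female cells held 58.7% of its 75 UMIs, 1 cell alone 26, and the 3 highest male cells 21.3% of 268. Leaving out the cell with the most UMIs was not tried for Cd209f. Cd209g had 364 (273–476) and 563 (482–654) CPM, from 53 and 171 UMIs. Cd209f was detected after thinning in 25.5% of female and 42.6% of male Lyve1-high macrophages (27.4% and 52.2% without thinning), and in 0.0964% and 0.298% of lymphocytes. Cd209g was detected in 20.0% and 33.9% of these macrophages (33.9% and 44.9% without thinning) and in 0.0964% of female lymphocytes. In the male library it was seen in 0 of 1007 thinned lymphocytes (an upper limit of 0.298% at that depth), and 4 of 1034 (0.387%) had one without thinning. The level in lymphocytes was 0.655 and 0.709 CPM for Cd209f and 0.655 and 0.945 CPM for Cd209g. The median depth of Lyve1-high macrophages was 2013.5 and 1896 UMIs, lower than that of lymphocytes.

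Aldh1a2-high macrophages ranked second for both genes. They had 54.8 (31.9–87.8) and 28.7 (14.9–50.2) CPM of Cd209f and 41.9 (22.3–71.7) and 16.8 (6.74–34.5) CPM of Cd209g. Other macrophages had 1.95 (0.714–4.23) and 4.40 (2.20–7.87) CPM of Cd209f and 0.648 (0.0785–2.34) and 2.40 (0.881–5.22) CPM of Cd209g. DCs gave 2 female and 1 male UMI of Cd209f and 2 female UMIs of Cd209g, and monocytes at most 3 UMIs of either gene.

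Cd209b gave 19 UMIs in the whole female and 119 in the whole male library, and it too was highest in Lyve1-high macrophages. Its level in Lyve1-high macrophages was 75.5 (37.7–135) CPM from 11 UMIs in the female and 313 (253–383) CPM from 95 UMIs in the male library. The female level was 36.4 CPM from 3 UMIs under the ceiling of 5% and 127 CPM from 7 UMIs in thinned cells. After thinning, 7.27% (2.02–17.6) and 18.3% (11.7–26.6) of these cells had a UMI (12.9% and 23.9% without thinning), against 0.0482% of female lymphocytes and 0 of 1007 male ones, which allows up to 0.298% at that depth. Without thinning, 3 of 2112 female (0.142%) and 4 of 1034 male lymphocytes (0.387%) had a Cd209b UMI. Aldh1a2-high macrophages had 9.67 (2.00–28.3) and 16.8 (6.74–34.5) CPM. Other macrophages had no UMI in the female library and 2.40 (0.881–5.22) CPM in the male library. cDC2 had 1 and 2 UMIs.

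Lyve1-high macrophages were then compared with other macrophages. Of all genes with at least 20 UMIs in both classes together, 16.7% of 8915 in the female and 14.7% of 8781 in the male library were 2-fold or more higher in Lyve1-high macrophages. Most members met this minimum through their UMIs in Lyve1-high macrophages, and female Cd209b, with 11 UMIs, did not meet it, so no count of members is set against these shares and the ratios are given one by one. The median ratio over all genes tested was 1.04 and 1.03. For Cd209f the ratio was 265 (116–744) in the female and 201 (110–407) in the male library. Cd209g was 561-fold (148–4755) and 235-fold (106–648) higher, the female value resting on 2 UMIs in other macrophages. Over the alternatives it ranged from 185 after thinning to 1116 without cells near a gate boundary in the female library, and up to 611 under the 5% ceiling in the male library. For Cd209b the female ratio was at least 77.7, with 3 UMIs taken as the level of female other macrophages, and the male ratio was 130 (57.7–364). Cd209d had a female ratio of at least 254 on the same basis and a male ratio of 191 (72.3–717). Cd209a had the smallest ratios, 8.61 (4.15–16.9) and 18.2 (10.4–33.1). The ratio of Cd209f was 957 and 455 with a mitochondrial ceiling of 5%, 107 in the female library after thinning and 544 in the male library with classes from clusters. The median share of mitochondrial UMIs was 5.99% and 6.57% in Lyve1-high macrophages and 3.03% and 2.88% in other macrophages, and its part in these ratios was not tested.

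Marker lists of the classes and of other cell types were also summed in the 2 classes that hold most family UMIs. The 9 general macrophage markers summed to 40460 CPM in female and 25580 CPM in male Lyve1-high macrophages, which are macrophages themselves. In cDC2 they summed to 1080 and 1008 CPM, and 1 of the 9 was at 0. Mertk was that marker in both libraries. The 7 cDC2 markers summed to 2527 and 2764 CPM in Lyve1-high macrophages, above the 1364 and 1815 CPM of cDC2 themselves. Most of the female sum came from the lectins Mgl2 (1628 CPM) and Clec10a (549 CPM). Both were also higher in Lyve1-high than in other macrophages, 16.3- and 44.6-fold in the female and 5.82- and 25.7-fold in the male library. Ccl17 was at 0 in both libraries, Ifitm1 in the female and Tnip3 in the male library. The 12 monocyte markers summed to 916 and 911 CPM in cDC2, with 3 and 1 at 0, and to 213 and 69.2 CPM in Lyve1-high macrophages, with 3 and 6 at 0. The 8 B cell markers summed to 236 and 159 CPM in cDC2 and to 460 and 659 CPM in Lyve1-high macrophages, with Pax5 at 0 in both classes and libraries. The 6 neutrophil markers summed to 392 and 583 CPM in Lyve1-high macrophages, where Cxcr2 was at 0, and to 63.4 and 696 CPM in cDC2, with none at 0. The 7 markers of adrenal endocrine cells summed to 137 and 356 CPM in Lyve1-high macrophages, with Dbh and Th, enzymes of catecholamine synthesis, at 0, and to 68.5 and 27.7 CPM in cDC2. How much of each sum was RNA of other cells and how much was the class's own was not tested. The part of RNA of other cells in the levels of the members was not tested either.

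**Figure D3:**
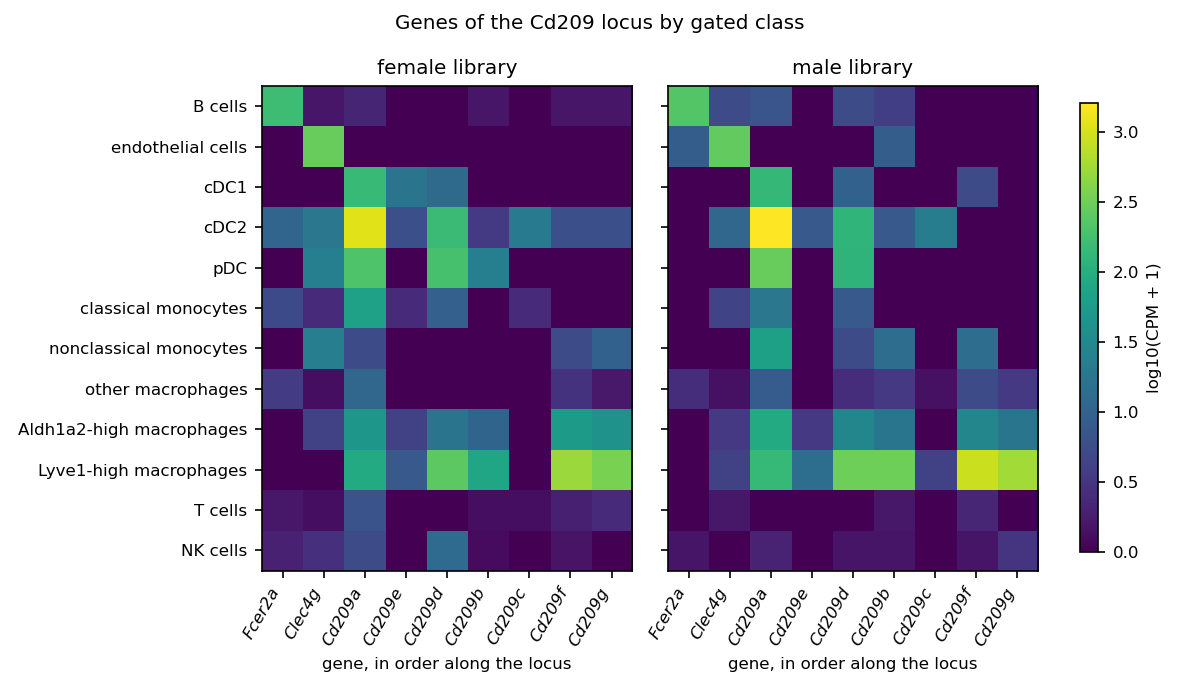
Levels of the family, its paralogs and the neighbours Fcer2a and Clec4g as log10(CPM + 1) in 12 classes, with genes in their order along the locus and 1 panel per library. The bright cells of Cd209a lie in the DC rows, and those of Cd209f and Cd209g in the row of Lyve1-high macrophages.

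Across 28 class sums with at least 20 cells, the members fell into 2 patterns on the log2(CPM + 10) scale. These correlations are a description, since the sums share libraries and the classes are few. Cd209f and Cd209g followed each other most closely (r = 0.985), and Cd209b followed Cd209f (r = 0.946) and Cd209g (r = 0.923). Cd209a correlated with Cd209d (r = 0.818) and weakly with Cd209f (r = 0.298) and Cd209g (r = 0.267), and Cd209d stood between, at r = 0.665 with Cd209f. Of 10233 other genes, those most like Cd209f and Cd209g were the same 5, namely Folr2, Cbr2, Pla2g2d, Fxyd2 and Fcna, and these were also the 5 most like Cd209b. Folr2, which encodes folate receptor beta, reached r = 0.968 with Cd209f. Folr2, Cbr2 and Fcna are markers used in the gate, so their place was fixed in part by the gate, whereas Pla2g2d, a secreted phospholipase (r = 0.953 with Cd209f), and Fxyd2, a regulator of the sodium pump (r = 0.949), are not. Cd209a was most like Fcor (r = 0.932), a corepressor of Foxo1, followed by Rtl5, the collagen receptor Ddr1, Olfm1 and Syngr2 (r = 0.806 to 0.822). Cd209d was most like the lectin Clec10a (r = 0.893) and the haemoglobin scavenger receptor Cd163 (r = 0.831), both gate markers, and then Ccl24, Foxred2 and Rnf150.

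Single cells often held several members. After thinning, 36.4% of 55 female and 64.4% of 115 male Lyve1-high macrophages had a UMI of at least 1 member, and 21.8% and 40.9% had UMIs of at least 2. One male cell had all 5. In the male library, 28 of 39 Lyve1-high macrophages with Cd209g also had Cd209f (71.8%), and Cd209f was found in 42.6% of the class. The female counts were 7 of 11 (63.6%) beside 25.5% of the class. For Cd209d, 16 of 26 male cells (61.5%) and 7 of 9 female cells (77.8%) also had Cd209f. Some other pairs in the male class were near the class share. Of 21 cells with Cd209b, 4 had Cd209d (19.0% beside 22.6%), and of 9 cells with Cd209a, 3 had Cd209g (33.3% beside 33.9%). In cDC2, 62.3% of female and 66.1% of male cells had a member, but only 7.79% and 7.14% had 2, and no cDC2 had more than 2 after thinning. Without thinning, 25.6% of female and 25.9% of male cDC2 had at least 2, and 1 female cDC2 had 4. The share for Lyve1-high macrophages was then 27.4% in the female and 48.55% in the male library. The female classes were thus close at full depth. Of thinned cDC2 with Cd209d, 6 of 9 female (66.7% beside 58.4%) and 3 of 4 male cells (75.0% beside 62.5%) also had Cd209a. With all UMIs, 20 of 21 female and 14 of 14 male cDC2 with Cd209d also had Cd209a, a gene present in 76.8% and 77.6% of the class. Other macrophages had a member in 1.33% and 1.21% of cells.

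**Figure D4:**
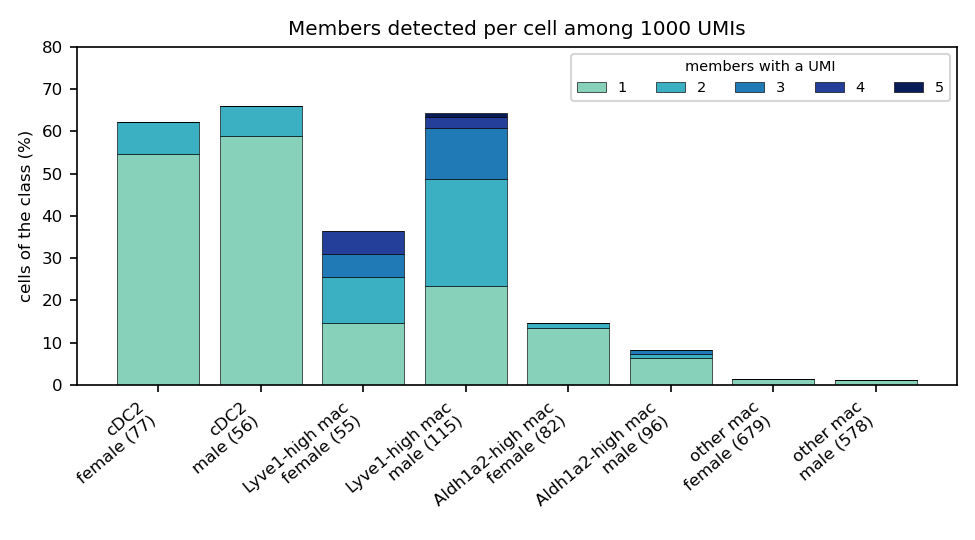
Percent of cells of a class with UMIs of 1 to 5 members among 1000 UMIs per cell, by class and library (cells in parentheses). cDC2 mostly have 1 member, and of male Lyve1-high macrophages 40.9% have 2 or more. Without thinning, 25.6% of female and 25.9% of male cDC2 have 2 or more.

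Lyve1-high macrophages were also split by the summed share of MHC class II transcripts, whose products present antigen to CD4 T cells, at a median of 23.4 UMIs per 1000. Male cells at or below the median had 1209 (1033–1407) CPM of Cd209f and those above it 607 (494–739). Cd209b (454 against 194 CPM) and Cd209d (425 against 207 CPM) had the same direction in the male library, and the intervals of each pair did not overlap. Cd209g had 497 (387–629) and 619 (505–752) CPM with overlapping intervals. In the female library the intervals of all 5 members overlapped between the subsets, and Cd209f had 493 (341–689) CPM in 27 cells below and 535 (384–726) CPM in 35 cells above the median. Female Cd209d had 174 (89.9–304) and 313 (201–466) CPM. Cells with a UMI of Timd4, a receptor for phosphatidylserine on long-lived resident macrophages, had 1243 (1028–1490) CPM of Cd209f against 721 (611–846) CPM without it in the male library, and 448 (298–648) against 565 (415–752) CPM in the female library. For Cd209d the female values were 416 (272–610) CPM with and 120 (57.7–221) CPM without a Timd4 UMI, and the male values 351 (241–492) and 287 (219–369) CPM, with overlapping intervals. Timd4 is part of the gate, and cells with a UMI were deeper in the female library, at a median of 2573 against 1546 UMIs.

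Levels were then compared between the sexes within a class. In Lyve1-high macrophages Cd209b was 0.241 (0.117–0.452) times as high in the female as in the male library, or 4.14-fold higher in the male. At the main settings Cd209b was the only one of the 5 members 2-fold or more lower in the female library, beside 6.31% of 3599 genes. It met the UMI minimum only through its 95 male UMIs, against 11 female ones, so nothing is read from that count. Other members passed 2-fold in other settings. These were Cd209g after thinning, at 0.418 (0.223–0.734), Cd209a and Cd209d under the ceiling of 5%, and Cd209a with classes from clusters, as given below. Cd209f had a female over male ratio of 0.584 (0.446–0.756) and Cd209g of 0.646 (0.466–0.884). The female value of Cd209f rested on 75 UMIs, of which 3 cells held 58.7%. The intervals of Cd209a, 0.645 (0.318–1.23), and of Cd209d, 0.807 (0.533–1.198), included 1. All 5 values lay below 1, while the median over genes was 0.988. The share of all genes below 1 was not counted, so nothing is read from that number of members. Marker sums of the class also differed, at 40460 CPM (female) and 25580 CPM (male) for general macrophage markers. They were 213 and 69.2 CPM for monocyte markers and 137 and 356 CPM for adrenal endocrine markers. The part of these differences in the ratios was not tested. Under the ceiling of 1.2%, which left 7 female and 2 male cells and 1 male UMI of Cd209f, the ratio of Cd209f turned to 7.13 (1.19–291). Under the ceiling of 5% mitochondrial UMIs, which left 29 female and 54 male Lyve1-high macrophages, the ratio was 0.227 (0.0437–0.752) for Cd209a, 0.122 (0.0241–0.380) for Cd209b, 0.490 (0.206–1.05) for Cd209d, 0.893 (0.645–1.23) for Cd209f and 0.828 (0.547–1.23) for Cd209g. The intervals of Cd209f and Cd209g then included 1, and that of Cd209a did not. Under this ceiling the female level of Cd209d in these cells was 109 CPM and those of Cd209a and Cd209b were 36.4 CPM, from 9, 3 and 3 UMIs. With classes from clusters the intervals of Cd209a, 0.498 (0.260–0.901), and Cd209d, 0.622 (0.412–0.922), also lay below 1.

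In Aldh1a2-high macrophages, where Cd209b and Cd209d had only 10 and 17 UMIs in both libraries together, the intervals of all 5 ratios included 1, and Cd209f and Cd209g had ratios above 1, at 1.91 (0.859–4.38) and 2.50 (0.927–7.40). In cDC2 the female over male ratio of Cd209a was 0.731 (0.639–0.835) and that of Cd209d 1.22 (0.794–1.899), and neither was 2-fold lower, beside 3.63% of 4081 genes. The ratio of Cd209a was 0.916 (0.677–1.24) after thinning and turned to 1.12 (0.911–1.37) under the ceiling of 1.2%. That of Cd209d was 1.62 (1.17–2.29) with classes from clusters, 1.08 (0.754–1.55) when the NK-gated cell was also left out, and 0.988 (0.589–1.68) by the gates without the cell with the most UMIs in each library.

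Over all macrophages the sexes differed more. The female over male ratio was 0.118 for Cd209b, 0.306 for Cd209f, 0.336 for Cd209g, 0.342 for Cd209d and 0.557 for Cd209a. The male library had 138 Lyve1-high cells among 949 macrophages and the female library 62 among 899. With both libraries weighted to the same makeup of macrophage classes the ratios were 0.247, 0.638, 0.709, 0.734 and 0.786 in the same order. Animal to animal spread was not measured, and sex cannot be told apart from the library.

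**Figure D5:**
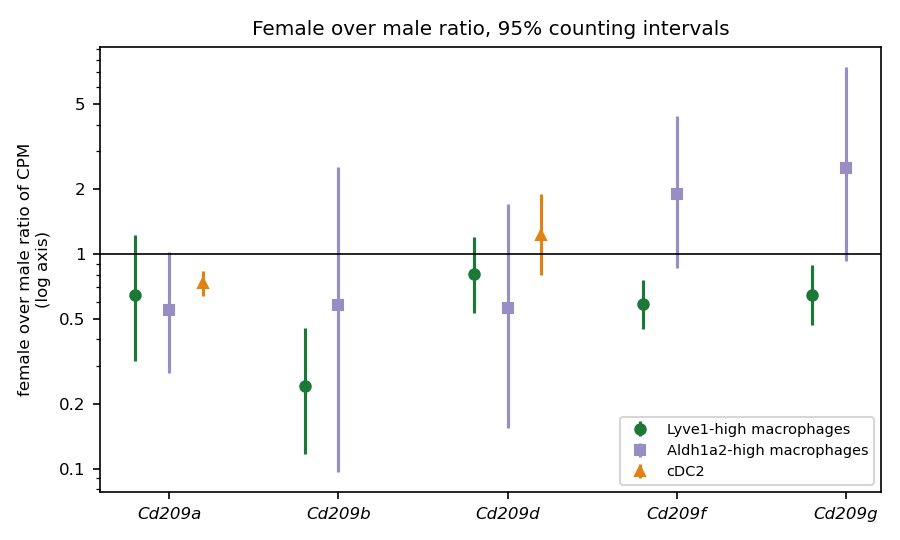
Female over male ratio of the level (log axis) in Lyve1-high macrophages (circles), Aldh1a2-high macrophages (squares) and cDC2 (triangles), with 95% counting intervals, for pairs with at least 10 UMIs. All 5 circles lie below 1, those of Cd209a and Cd209d with intervals that include 1, and the interval of Cd209b ends at 0.452.

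Other lectin receptors and adaptors of myeloid cells, 27 listed genes, gave the setting for the family. In Lyve1-high macrophages 5 of them were 2-fold or more higher than in other macrophages in both libraries and none was lower in both, of 23 with enough UMIs in both. They were the mannose receptor Mrc1 (8.05-fold in the female and 7.86-fold in the male library), the galactose-type lectins Clec10a (44.6 and 25.7) and Mgl2 (16.3 and 5.82), Clec4a1 (2.97 and 4.21) and the scavenger receptor Colec12 (10.1 and 51.2). Fcer1g and Tyrobp, the signalling adaptors of many lectins, had ratios of 0.750 and 0.552 in the female and 0.692 and 0.413 in the male library. In single libraries 5 of 24 listed genes in the female and 6 of 24 in the male library were 2-fold or more higher, beside 16.7% and 14.7% of all genes. A further 1 and 7 were 2-fold or more lower. The share of all genes that were lower was not counted, here or in the comparisons below, so nothing is read from counts of lower genes. The median ratio of the listed genes was 1.11 and 0.707, beside 1.04 and 1.03 over all genes tested. In DCs against monocytes, Mrc1, Clec10a, Mgl2, Clec4b1 and Clec9a were higher and Clec4a1, Clec4a3, Clec4e, Clec12a and Cd302 lower in both libraries, of 16 with enough UMIs. In single libraries 5 of 20 and 5 of 16 were higher, beside 5.71% and 6.3% of all genes. Female Clec9a (40 UMIs in DCs and 0 in monocytes), Mgl2 (190 and 7) and Mrc1 (86 and 14) met the UMI minimum only through the DCs. Of the listed genes 9 and 6 were lower, with no share of all genes counted for that direction. The list medians were 0.529 and 0.533 beside 0.846 and 0.813 over all genes. In cDC2 against cDC1, 10 of 14 were higher in both, Mrc1, Clec10a, Mgl2 and Clec4b1 among them, and only Clec9a, the cDC1 receptor for dead cells, was lower (0.0194 and 0.0497). In single libraries 10 of 15 and 10 of 14 were higher, beside 19.3% and 15.1% of all genes. There were 1 and 2 lower ones, again with no share of all genes counted for that direction. The list medians there were 3.75 and 2.91 beside 1.21 and 1.16. Clec10a, Mgl2 and Clec9a are markers of the DC gates, so their place in the DC comparisons was fixed in part by the gates. Male Colec12 met the UMI minimum only through its 56 UMIs in Lyve1-high macrophages, with 9 in other macrophages. Nothing is therefore read from the counts of higher genes in any of these comparisons.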

How the data were processed

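Live CD45+ cells of adrenal glands were profiled in 1 female and 1 male library with the 10x 3′ v3.1 kit. Per the labels and methods, the authors ran Cell Ranger 4.0.0 on the mm10 build and chose cell barcodes with DropletUtils 1.4.3, and Seurat 3.1.0 served for their own analysis. The authors deposited raw UMI counts, with no normalization.

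Barcodes with fewer than 200 genes or more than 15% mitochondrial UMIs were left out, together with the highest Scrublet scores at a rate of 0.8% per 1000 barcodes (123 female and 53 male, since the automatic threshold marked only 1 and 8). The study states a mitochondrial ceiling of 1.2%, which leaves 327 and 359 barcodes here, far fewer than the cells it kept, so its scale in these files is uncertain. It was used as an alternative and does not stand for the cells of the study. Cells were gated by 131 markers in 18 lists (score of 0.15 or more and at least 2 markers), and the macrophage split used an Otsu threshold of 1.065 on the Lyve1 score. Raw UMIs were summed per class and library. CPM carry exact Poisson, shares exact Clopper-Pearson and ratios exact conditional binomial intervals at 95%. Shares of genes called and counts of members called used genes with at least 20 UMIs in both classes together, ratios of members with fewer UMIs are given as values, the plot of sex ratios used at least 10 UMIs, a fold of 2 or more was called, and a class without a UMI was set at 3 UMIs. For the likeness of patterns, genes with at least 50 UMIs in all and 20 CPM in a class were used. The named genes were all members, 2 paralogs, 2 neighbours of the locus, the fixed lectin list and the 5 genes most like each member. Members and lists were chosen with earlier results of these data known, and the scoring of the gates was settled after the counts were seen. Thinning drew 1000 UMIs per cell and left out shallower cells. Alternatives were other doublet and mitochondrial limits, classes from clusters (Seurat 5.3.0 with sctransform 0.4.2), thinned counts, and leaving out cells near a gate boundary. The counting steps were tested on simulated data. Python 3.11.15, scanpy 1.11.5, scipy 1.17.1, scikit-image 0.26.0 and biopython 1.88 were used.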

Additional observations from a re-analysis of the deposited data

How the results depend on the processing

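In all, 48 values were recomputed under 249 alternatives. Of these, 183 stayed within their spread or interval, 64 moved and 2 changed direction. Both doublet settings (29 values each) and the division by the median ratio over genes (7 values) moved none. With a mitochondrial ceiling of 1.2%, which left 7 female and 2 male Lyve1-high macrophages, the female over male ratio of Cd209f in these cells was 7.13, from 1 male UMI, and that of Cd209a in cDC2 was 1.12. The ratio of Lyve1-high over other macrophages for Cd209f was 957 in the female and 455 in the male library at 5%, 44.7 in the male library at 1.2%, 107 in the female library after thinning and 544 in the male library by clusters. The ratio of DCs over monocytes for Cd209a was 29.3 in the female and 46.2 in the male library at 1.2%, 37.0 by clusters and 20.4 after thinning in the female library, and 44.1 in the male library without cells near a gate boundary. Female over male ratios in Lyve1-high macrophages at 5% were 0.227 for Cd209a, 0.490 for Cd209d and 0.893 for Cd209f, and that of Cd209g after thinning was 0.418. The cause of these shifts was not tested. A further 8 alternatives gave no value because a side of the ratio had no UMI. No paired analysis was possible because there was 1 library per sex. Few cells limit the female Lyve1-high values (62 cells) and those of pDCs (16 and 7 cells).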

Other observations

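A pair of genes examined beside the family, both on the Cd209a side of the locus, had other patterns. Fcer2a, which encodes the low-affinity IgE receptor CD23, was a B cell gene with 161 (143–181) CPM in the female and 217 (183–255) CPM in the male library. Clec4g, which encodes the lectin LSECtin, had 284 (191–405) and 272 (190–379) CPM in endothelial cells. The paralogs within the cluster had few UMIs. Cd209c gave 10 UMIs in the female and 8 in the male library, of which 8 and 6 lay in cDC2. Cd209e gave 14 and 9 UMIs, with 11 and 3 in DCs and 1 and 4 in Lyve1-high macrophages. Cd209h is not analysed here.

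The cells that no gate took had a Cd209a UMI in 12 of 38 female and 11 of 46 male cells, with 543 (405–712) and 414 (312–537) CPM, levels between those of cDC1 and cDC2 in both libraries. They had no Cd209f or Cd209g UMI.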
